A study of Rattus norvegicus with 20 samples.

Results

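Slc14a1, Slc14a2, Slc4a11, Fst and Wnt7b are 5 of the 30560 genes measured by RNA sequencing in the kidney cortex and left ventricle of 10 rats. They were taken by name from the table, and they were proposed because they were higher in kidneys of rats given Maresin 1 (MaR1) in earlier results of these data. Their kidney differences between MaR1 and vehicle are therefore given as a description without a test. All 5 were found, each with 1 Ensembl identifier.

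Slc14a1 and Slc14a2 encode the urea transporters UT-B and UT-A. UT-A carries urea across the inner medullary collecting duct and the thin descending limb, and UT-B carries it across the descending vasa recta and red blood cells, so that urea is trapped in the inner medulla while urine is concentrated. Slc4a11 encodes a transporter of the bicarbonate transporter family that moves protons or hydroxide, known in mouse kidney from thin descending limbs. Fst encodes follistatin, a secreted protein that binds activins and blocks their signal. Wnt7b encodes a secreted Wnt ligand of the collecting duct epithelium that in mice is needed for the medulla to form and elongate. These roles are background and were not measured here.

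The MaR1 group was 5 male rats with an osmotic minipump under the skin that delivered MaR1, a lipid mediator derived from docosahexaenoic acid; the highest dose was 1.3 µg/kg/day. The vehicle group was 5 male rats whose minipumps held vehicle. All 10 rats are called hypertensive by the study and WT by the genotype label, were 8 weeks old when a telemeter was implanted and were fed 4% NaCl chow over 3 weeks. The strain is not named in the sources used here, and every group carried the salt load, so no kidney on ordinary salt was compared. Each rat gave 1 kidney and 1 heart library, 20 in all with 5 in each of 4 groups, and values are fragments per unit of gene length and of library size (FPKM).

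The urea transporter genes lie next to each other, and their sequences around the start of transcription are shown because they are the pair of members that share a neighbourhood. As the table gives positions, on a build not given in the sources used here, Slc14a1 (ENSRNOG00000016753) spans chr18:71565454-71595146 and Slc14a2 (ENSRNOG00000061714) spans chr18:71612460-71792968. Both are protein coding and read from the minus strand, with a gap of 17.3 kb and 0 listed genes between them. The sequences below are RefSeq windows on GRCr8, 300 bases each on the minus strand, from 250 bases before the start to 50 after it. The Slc14a1 window is chr18:73864594-73864893. Slc14a2 has 2 listed starts, 393 kb apart, with windows chr18:74314497-74314796 and chr18:73921535-73921834. The Slc14a2 gene in the deposited table spans 181 kb on its own build, less than that distance, so the counted gene may not hold both starts, and which one it holds was not determined. Capitals mark TATAAA, the TATA box core.
Slc14a1: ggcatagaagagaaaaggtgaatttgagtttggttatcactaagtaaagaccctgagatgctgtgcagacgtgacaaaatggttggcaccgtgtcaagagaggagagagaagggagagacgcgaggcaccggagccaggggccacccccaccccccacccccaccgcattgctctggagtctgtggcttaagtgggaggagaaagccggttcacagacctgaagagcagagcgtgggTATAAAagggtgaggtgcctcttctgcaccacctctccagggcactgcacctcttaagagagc
Slc14a2, upstream start: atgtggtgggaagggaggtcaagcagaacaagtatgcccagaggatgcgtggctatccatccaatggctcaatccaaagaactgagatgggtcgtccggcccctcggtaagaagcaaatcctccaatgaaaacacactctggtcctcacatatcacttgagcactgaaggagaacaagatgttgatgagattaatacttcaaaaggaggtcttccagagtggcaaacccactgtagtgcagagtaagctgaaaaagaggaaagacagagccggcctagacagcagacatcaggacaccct
Slc14a2, downstream start: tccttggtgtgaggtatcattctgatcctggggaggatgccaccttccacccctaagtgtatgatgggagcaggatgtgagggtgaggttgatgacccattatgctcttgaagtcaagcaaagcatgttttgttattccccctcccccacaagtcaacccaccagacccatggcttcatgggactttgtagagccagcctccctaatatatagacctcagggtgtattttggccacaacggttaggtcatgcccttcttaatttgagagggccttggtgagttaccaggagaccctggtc
The Slc14a1 window held 1 TATAAA, beginning 13 bases before the listed start, and both Slc14a2 windows held none. On either strand, TATAAA was present in 14.2% of the 33469 rat promoter windows of this length. TGGAAA, the core that the tonicity factor NFAT5 shares with other NFAT proteins, and CTTTGA, a core bound by the TCF and LEF factors of the Wnt pathway, were in none of the 3 windows, against 22.7% and 16.1% of all windows. No motif contains another on either strand, and a match or its absence describes these letters alone. The RefSeq promoter table matched 2 of the 5 members. The other members are Slc4a11 (ENSRNOG00000021234, chr3:117900223-117912674), Fst (ENSRNOG00000011631, chr2:46123439-46130571) and Wnt7b (ENSRNOG00000015750, chr7:116634814-116679581), all on the minus strand.

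Libraries held 19383232 to 30342034 fragments assigned to genes, so the members rest on few fragments where they are low. The kidney labels fit the contents, with 10 proximal tubule markers summing to 3372 to 6471 FPKM in kidneys and at most 19.6 FPKM in hearts. Cardiomyocyte markers summed to at most 1.44 FPKM in kidneys. The kidneys differed in other tissue. The 11 urothelium markers, genes of the lining of the renal pelvis, summed to 1.21, 18.3, 2.71, 35.6 and 95.2 FPKM in MaR1 kidneys RB035 to RB039 and to 1.18, 1.06, 0.755, 0.669 and 5.59 FPKM in vehicle kidneys RB030 to RB034. The adipocyte markers summed to 383 FPKM in MaR1 kidney RB039, against 9.82 to 58.7 FPKM in the other 9 kidneys. Podocyte markers, from the glomeruli of the cortex, summed to 47.9 to 80.2 FPKM in MaR1 kidneys and 75.5 to 113 FPKM in vehicle kidneys. In whole tissue, fewer cells of a type and less RNA per cell cannot be told apart, and this holds for every kidney value below.

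Slc14a1 was higher in every MaR1 kidney than in any vehicle kidney. It stood at 0.847, 1.05, 2.57, 2.93 and 2.89 FPKM in MaR1 kidneys RB035 to RB039 and at 0.119, 0.251, 0.167, 0.190 and 0.485 FPKM in vehicle kidneys RB030 to RB034. The MaR1 values fell at 2 levels, with RB035 and RB036 low and the other 3 high, and the highest vehicle kidney was RB034. The MaR1 mean was 2.06 ± 1.02 FPKM and the vehicle mean 0.242 ± 0.144 FPKM (SD, n = 5 each). The difference of the mean log2(FPKM + 0.5) was 1.69 ± 0.32 (SE), a scale that understates changes of genes this low. These values rest on 107 to 324 fragments per MaR1 kidney and 17 to 41 per vehicle kidney. Red blood cell markers, of a cell type that carries UT-B, summed to 13.5, 13.7, 8.22, 30.8 and 40.2 FPKM in MaR1 kidneys RB035 to RB039 and to 49.9, 5.89, 8.85, 21.7 and 3.36 FPKM in vehicle kidneys RB030 to RB034, and in both groups the order of that sum was not the order of Slc14a1. RB039 and RB038 had the highest sums among MaR1 kidneys and the highest Slc14a1, while vehicle kidney RB030 had the highest sum of all and the lowest Slc14a1. Endothelium markers summed to 104 to 139 FPKM in MaR1 kidneys and 91.4 to 134 FPKM in vehicle kidneys, and the part of blood or vessels in the Slc14a1 difference was not tested.

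Slc14a2, the collecting duct urea transporter gene, was high in 1 kidney. It stood at 0.0278, 0.785, 3.83, 0.260 and 0.392 FPKM in MaR1 kidneys RB035 to RB039 and at 0, 0, 0.0407, 0.0304 and 0.104 FPKM in vehicle kidneys RB030 to RB034. MaR1 kidney RB037 alone held 505 of the 686 fragments of its group, MaR1 kidney RB035 held 4, within the vehicle range of 0 to 10, and the groups overlapped. A count of 0, as in 2 vehicle kidneys, allows for up to 3 fragments, counting error alone considered. The log2 difference was 1.10 ± 0.52 (SE), and 0.63 without animal RB037. Slc14a2 was below the filter of a mean of 1 FPKM over kidneys, so it was outside the fit across genes.

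Slc4a11 was nearly level across vehicle kidneys and scattered across MaR1 kidneys. It stood at 2.75, 1.52, 4.62, 2.83 and 0.982 FPKM in MaR1 kidneys RB035 to RB039 and at 0.932, 0.896, 0.696, 0.811 and 0.874 FPKM in vehicle kidneys RB030 to RB034. RB037 was again the highest, while RB039 lay just above the highest vehicle kidney, so the groups came close without overlapping. The means were 2.54 ± 1.41 FPKM with MaR1 and 0.842 ± 0.092 FPKM with vehicle (SD, n = 5 each), a log2 difference of 1.05 ± 0.31 (SE). The MaR1 kidneys thus spread over 4.71 times from lowest to highest, and the vehicle kidneys over 1.34 times.

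Fst, the activin antagonist, reached the highest level of the 5 genes. It stood at 7.82, 5.68, 16.7, 11.9 and 0.757 FPKM in MaR1 kidneys RB035 to RB039 and at 1.19, 1.81, 0.445, 1.39 and 1.99 FPKM in vehicle kidneys RB030 to RB034. The MaR1 kidneys other than RB039 exceeded every vehicle kidney, and RB039 lay below 4 of the 5 vehicle kidneys, so the groups overlapped. The means were 8.56 ± 6.05 FPKM with MaR1 and 1.36 ± 0.61 FPKM with vehicle (SD, n = 5 each), a log2 difference of 1.93 ± 0.70 (SE). Without animal RB039 the difference was 2.53, and without RB037 it was 1.59.

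Wnt7b, the collecting duct ligand, was higher in every MaR1 kidney than in any vehicle kidney. It stood at 1.66, 1.81, 4.14, 2.42 and 1.32 FPKM in MaR1 kidneys RB035 to RB039 and at 0.224, 0.648, 0.172, 0.196 and 0.745 FPKM in vehicle kidneys RB030 to RB034. RB037 was the highest and RB039 the lowest MaR1 kidney, and 2 vehicle kidneys, RB031 and RB034, stood apart from the other 3. The means were 2.27 ± 1.12 FPKM with MaR1 and 0.397 ± 0.276 FPKM with vehicle (SD, n = 5 each), a log2 difference of 1.60 ± 0.30 (SE).

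**Figure D1:**
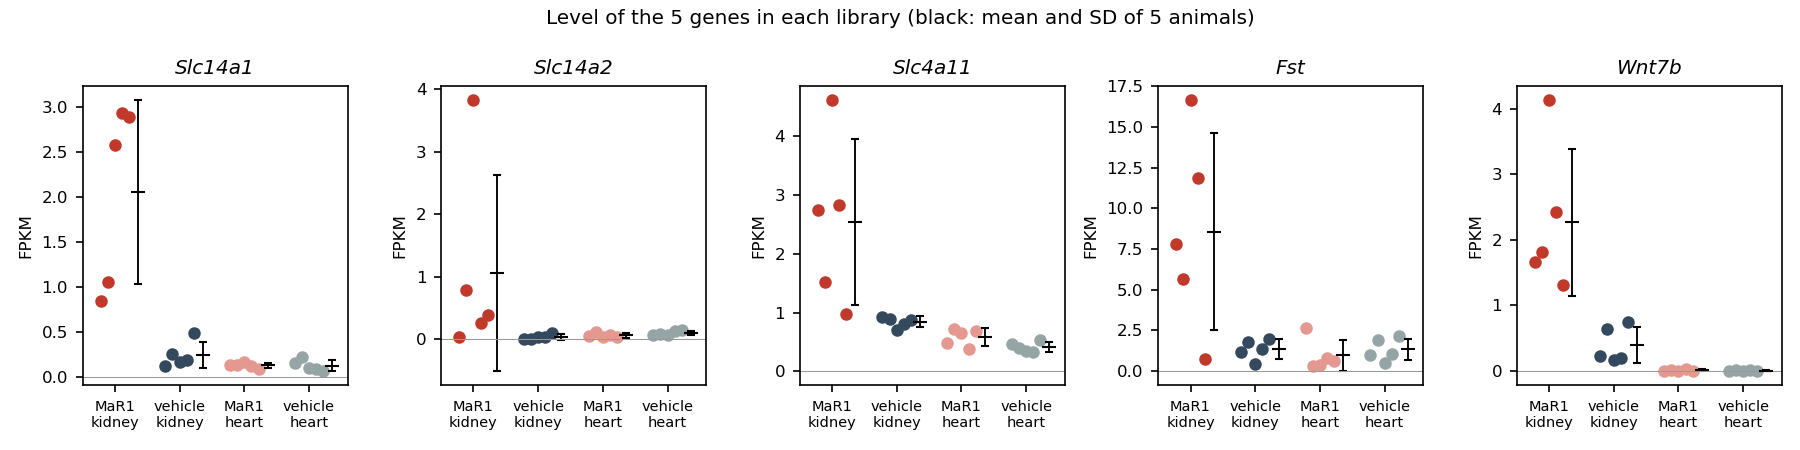
Level in FPKM of each of the 5 genes in each of the 20 libraries, by organ and treatment; points are animals and black marks the mean and SD of 5. MaR1 kidneys lie above all vehicle kidneys for Slc14a1, Slc4a11 and Wnt7b, while 1 MaR1 kidney lies within the vehicle range for Fst (0.757 FPKM) and 1 for Slc14a2 (0.0278 FPKM).

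Ordered by level, MaR1 kidneys held Fst, Slc4a11, Wnt7b, Slc14a1 and Slc14a2 from highest to lowest mean FPKM, and vehicle kidneys held them in the same order. Neighbours in this order overlapped in their ranges, except Slc14a1 and Slc14a2 in vehicle kidneys. Across kidney genes, limma called 0 of 12446 at an adjusted p of 0.05 (0%), the 4 members that passed the filter included. An unadjusted p under 0.05 was found for 840 genes (6.75%), and limma voom, run on recovered fragments, called 0 as well. With both organs in 1 model and the animal as block, 10 of the 12446 kidney genes were called, all higher with MaR1. Among them were 2 members, Slc14a1 and Wnt7b. All MaR1 kidneys lay above all vehicle kidneys in 90 genes (0.723%), 3 of the 4 members that passed the filter among them. The members were chosen by this contrast, and nothing is read from these shares. The median difference over all genes tested was 0.00 on the log2 scale.

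Aqp4, Fxyd4 and Slc6a12, markers of the inner medulla and thin limbs, had the same order over the 5 MaR1 kidneys as Slc4a11 and Fst, while other markers of the same list did not. Aqp4, a water channel of the basolateral membrane of the collecting duct, stood at 1.68, 1.49, 4.09, 3.79 and 0.747 FPKM in MaR1 kidneys RB035 to RB039, against 0.558 to 1.06 FPKM in vehicle kidneys. Fxyd4, which encodes a regulator of the sodium pump in the collecting duct, stood at 8.73, 7.97, 14.5, 12.5 and 4.33 FPKM in MaR1 kidneys RB035 to RB039, against 4.45 to 6.89 FPKM in vehicle kidneys. In both, RB037 was highest, RB038 next and RB039 lowest, as for Slc4a11, Fst and Wnt7b, and RB039 lay within or below the vehicle range, as it did for Fst. Akr1b1, which encodes the sorbitol-making aldose reductase, and S100a4 went the other way, with RB039 the highest of all 10 kidneys at 25.6 and 21.5 FPKM. Cryab and the inositol transporter gene Slc5a3 were highest in RB038, at 201 and 4.24 FPKM, and had RB039 as the lowest MaR1 kidney. Of the 9 matched markers of this list, 8 passed the filter and all 8 had a higher mean in MaR1 kidneys, 0 of them called by limma and 6 with an unadjusted p under 0.05, at a median log2 difference of 0.76. Their summed level was 184, 168, 210, 260 and 86.1 FPKM in MaR1 kidneys RB035 to RB039 and 69.4 to 140 FPKM in vehicle kidneys. Cryab, a small heat shock protein also abundant in heart, made up 33.9% to 79.6% of that sum. The part of inner medullary tissue in the members' kidney differences was not tested.

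**Figure D2:**
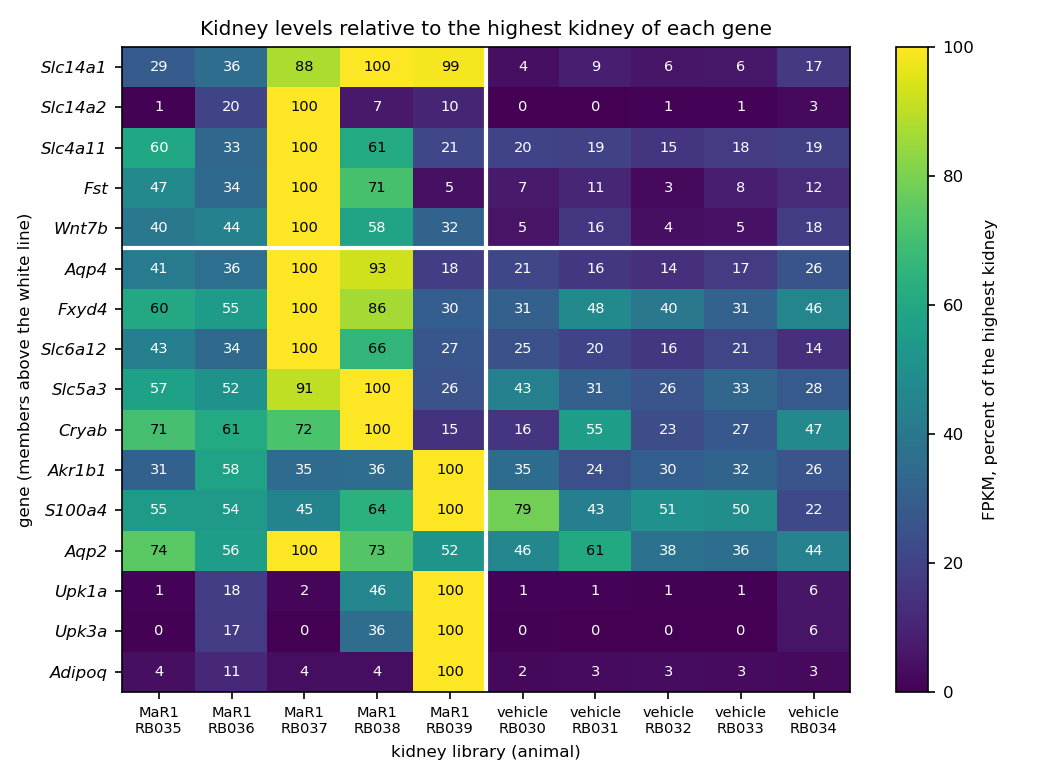
FPKM in each kidney as a percent of the highest kidney of that gene, for the 5 members, 7 markers of the inner medulla list, Aqp2, and 3 genes of urothelium and fat; columns are animals, MaR1 left of vehicle. RB037 is highest for 4 of the 5 members and for Aqp4, Fxyd4, Slc6a12 and Aqp2, RB038 for Slc14a1, Slc5a3 and Cryab, and RB039 for Akr1b1, S100a4, Upk1a, Upk3a and Adipoq.

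Slc14a1 did not follow that order. In MaR1 kidney RB039, Slc14a1 stood at 2.89 FPKM while Fst was at 0.757 and Slc4a11 at 0.982 FPKM, and this kidney had the most urothelium and adipocyte transcript. The 3 MaR1 kidneys with uroplakin Upk1a above 1 FPKM (4.33, 11.0 and 23.8 FPKM in RB036, RB038 and RB039) carried Slc14a1 at 1.05, 2.93 and 2.89 FPKM. RB037 carried it at 2.57 FPKM with Upk1a at 0.434 FPKM, and RB035 at 0.847 FPKM with Upk1a at 0.251 FPKM. Vehicle kidney RB034, with Upk1a at 1.47 FPKM, was the highest vehicle kidney for Slc14a1, Slc14a2, Fst and Wnt7b. Without these 4 kidneys, which leaves 2 MaR1 and 4 vehicle animals, the log2 differences were 1.58 for Slc14a1, 1.55 for Slc14a2, 1.62 for Slc4a11, 2.88 for Fst and 2.00 for Wnt7b. For Slc14a2 this value rests on RB037, since RB035, at 0.0278 FPKM, lay within the range of 0 to 0.0407 FPKM of the 4 vehicle kidneys. The part of urothelium in the members' differences was not tested.

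Whether the genes move together was asked of the variation inside the treatment groups, after subtracting each group's mean log2(FPKM + 0.5), since the groups differ by choice of the members. Over the 10 kidneys, 9 of the 10 member pairs had a positive Pearson r, with a median of 0.45. Slc4a11 and Fst had the highest, r = 0.89 (exact permutation within groups, two-sided p = 0.0016, adjusted p = 0.0319 over 20 relations) and Spearman rho = 0.84 (exact permutation p = 0.0147, adjusted p = 0.0951). That pair was the only one past the adjustment by r, and r was 0.65 without RB037 and RB039, the kidneys farthest from the median of Slc4a11. With 1 animal left out, the pair stayed past the adjustment only without RB030 or RB034. Fst and Wnt7b had r = 0.76 (exact permutation p = 0.0274, adjusted p = 0.131) and rho = 0.85 (exact permutation p = 0.00465, adjusted p = 0.0465), and r was 0.76 without RB037 and RB039. Slc4a11 and Wnt7b had r = 0.71 (exact permutation p = 0.0230, adjusted p = 0.131) and rho = 0.62 (exact permutation p = 0.0717, adjusted p = 0.242), and r was 0.27 without the same 2 kidneys. Slc4a11, Fst and Wnt7b thus deviated the same way in RB037 and RB039.

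The 2 urea transporter genes, although adjacent, did not show a relation that the data could resolve. Their r was 0.34 (exact permutation p = 0.654, adjusted p = 0.934), their rho 0.02 (exact permutation p = 0.961, adjusted p = 0.961), and r was -0.14 without RB035 and RB036. Slc14a1 and Fst had r = -0.02 (exact permutation p = 0.986, adjusted p = 0.986) and rho = 0.36 (exact permutation p = 0.400, adjusted p = 0.756), and r was 0.10 without RB035 and RB036. This value rests on 1 kidney, since it was 0.72 without RB039 (exact permutation p = 0.063). Slc14a2 and Wnt7b had r = 0.64 (exact permutation p = 0.0969, adjusted p = 0.277) and rho = 0.46 (exact permutation p = 0.217, adjusted p = 0.542), and r was 0.00 without RB035 and RB037. The MaR1 kidneys held 59.7% (Wnt7b) to 99.1% (Slc14a2) of each member's squared deviations, so these relations describe the 5 MaR1 kidneys more than the 5 vehicle kidneys.

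Against the summed inner medulla markers, Fst had r = 0.87 (exact permutation p = 0.00403, adjusted p = 0.0403) and rho = 0.85 (exact permutation p = 0.00257, adjusted p = 0.0465), and r was 0.77 without RB037 and RB039. The call by r was lost in 9 of the 10 cases with 1 animal left out, all but that without RB030, and r was then 0.67 (without RB039) to 0.92 (without RB030). Wnt7b had r = 0.76 with that sum (exact permutation p = 0.0328, adjusted p = 0.131) and Slc4a11 0.68 (exact permutation p = 0.0680, adjusted p = 0.227). Slc14a1 and Slc14a2 had 0.09 and 0.14 (exact permutation p = 0.889 and p = 0.732). Cryab made up 33.9% to 79.6% of the inner medulla sum and so weighs heavily in these r values, and relations with single markers were not tested. Against the summed urothelium markers, Slc14a1 had the only positive r, 0.61 (exact permutation p = 0.216, adjusted p = 0.480), and the other 4 had -0.65 to -0.14, none past the adjustment.

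**Figure D3:**
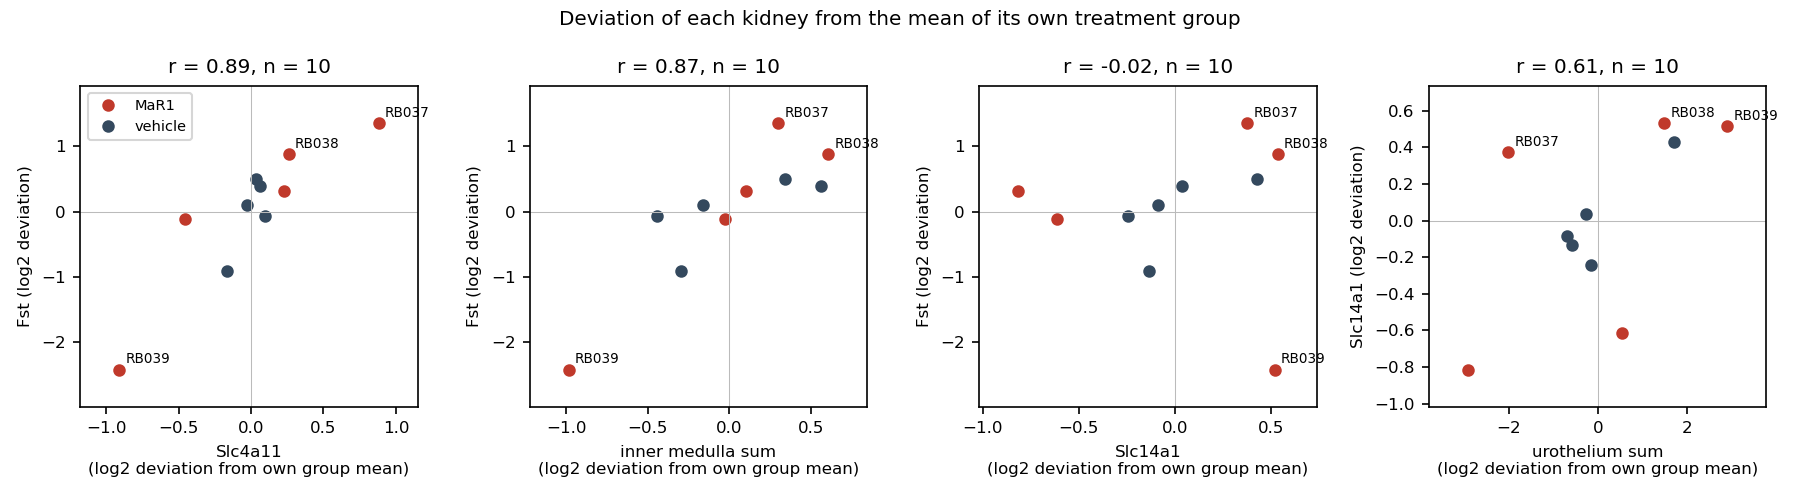
Each kidney's deviation from the mean of its own treatment group on log2 scales, for 4 of the 20 relations; points are the 10 kidneys and 3 MaR1 kidneys are named. Fst falls and rises with Slc4a11 (r = 0.89) and with the inner medulla sum (r = 0.87), while RB039 lies low for Fst and high for Slc14a1 (r = -0.02). Cryab makes up 33.9% to 79.6% of the inner medulla sum.

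In the left ventricle the members were low, and no difference between MaR1 and vehicle passed a test. Fst was the 1 member past the filter there, at 2.68, 0.310, 0.385, 0.826 and 0.619 FPKM in MaR1 hearts RB035 to RB039 and 1.02, 1.89, 0.519, 1.08 and 2.15 FPKM in vehicle hearts RB030 to RB034. The MaR1 hearts held both the highest and the lowest value, and the groups overlapped. Its log2 difference was -0.44 ± 0.38 (SE; limma adjusted p = 1.00, 95% interval -1.27 to 0.40), and limma called 0 of 12237 heart genes (0%), as did limma voom, with 563 at an unadjusted p under 0.05 in limma. Slc4a11 averaged 0.587 ± 0.147 FPKM in MaR1 hearts and 0.416 ± 0.085 FPKM in vehicle hearts (SD, n = 5 each), with 3 MaR1 hearts above every vehicle heart (log2 difference 0.24 ± 0.11 SE, exact permutation p = 0.0714). Slc14a1 averaged 0.125 ± 0.026 FPKM in MaR1 hearts and 0.124 ± 0.065 FPKM in vehicle hearts (exact permutation p = 0.929), and Slc14a2 averaged 0.0614 ± 0.0348 FPKM in MaR1 hearts and 0.101 ± 0.035 FPKM in vehicle hearts (exact permutation p = 0.111). Wnt7b had 0 to 3 fragments in MaR1 hearts and 0 to 2 in vehicle hearts, which gives no fold. With 5 animals against 5 the smallest two-sided exact p is 0.00794. Whether the difference in kidney and that in heart differ was not tested, since the kidney difference chose the members.

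Between the organs, values are given for the vehicle animals alone, a comparison added after the data were seen. Vehicle kidneys entered the choice of the members, which favours genes low in them, so this is a description without a test. Slc4a11 stood at 0.842 ± 0.092 FPKM in vehicle kidneys and 0.416 ± 0.085 FPKM in vehicle hearts (SD, n = 5 each), a log2 difference of 0.55 ± 0.07 (SE), and each animal had more in kidney. Wnt7b stood at 0.397 ± 0.276 FPKM in vehicle kidneys and 0.0056 ± 0.0079 FPKM in vehicle hearts, on 212 fragments in all 5 kidneys and 3 in all 5 hearts, and the organs did not overlap. Slc14a2 stood at 0.035 ± 0.043 FPKM in vehicle kidneys and 0.101 ± 0.035 FPKM in vehicle hearts, on 19 fragments in all 5 kidneys and 57 in all 5 hearts, and each animal had less in kidney. Fst stood at 1.36 ± 0.61 FPKM in vehicle kidneys and 1.33 ± 0.67 FPKM in vehicle hearts, a log2 difference of 0.03 ± 0.35 (SE). Slc14a1 stood at 0.242 ± 0.144 FPKM in vehicle kidneys and 0.124 ± 0.065 FPKM in vehicle hearts (0.24 ± 0.13 SE), and these organs overlapped for both genes. Scaling to total fragments moves the median kidney minus heart difference of all genes to 0.10 on the log2 scale, and left each of the 5 directions as it was.

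Other genes of urine concentration had mostly higher means in MaR1 kidneys, and limma called none of them. Of 12 matched, 11 passed the filter, 9 had a higher and 2 a lower mean, and 6 had an unadjusted p under 0.05, all higher, against 6.75% of all genes. The median log2 difference of the 11 was 0.50. Aqp3, a water channel of the basolateral membrane of principal cells, averaged 62.4 ± 6.70 FPKM in MaR1 kidneys and 44.4 ± 7.93 FPKM in vehicle kidneys (0.50 ± 0.12 SE, limma adjusted p = 0.582). Aqp2, the water channel that vasopressin moves to the apical membrane, averaged 172 ± 46.4 FPKM in MaR1 kidneys and 109 ± 23.7 FPKM in vehicle kidneys (0.64 ± 0.19 SE, limma adjusted p = 0.621). Both are among 9 principal cell markers, of which 7 passed the filter. Of those 7, 4 had a higher and 3 a lower mean in MaR1 kidneys, at a median log2 difference of 0.10. Avpr2, the vasopressin receptor gene, was listed at 0 in all 10 kidneys. Whether its transcript was absent or was not counted was not tested.

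All 10 genes of the tonicity response and of osmolyte uptake passed the filter. Means were higher with MaR1 for 8 of them and lower for 2. An unadjusted p under 0.05 was found for 5, all higher, against 6.75% of all genes, and the median log2 difference was 0.22. Slc38a2, an amino acid transporter that cells raise under hypertonicity, averaged 31.3 ± 2.64 FPKM in MaR1 kidneys and 24.6 ± 1.80 FPKM in vehicle kidneys (0.34 ± 0.08 SE, limma adjusted p = 0.444). Slc6a12, the betaine transporter gene, averaged 1.97 ± 1.08 FPKM in MaR1 kidneys and 0.699 ± 0.155 FPKM in vehicle kidneys (0.95 ± 0.25 SE, limma adjusted p = 0.588). Of these genes, Slc6a12, Slc5a3 and Akr1b1, are also in the inner medulla list. Of the SLC4 family other than Slc4a11, 6 of 9 matched genes passed the filter, 2 with a higher and 4 with a lower mean and 0 with an unadjusted p under 0.05, at a median of -0.18. Slc4a5 and Slc4a9, which encode bicarbonate transporters, had the smallest p, at -0.37 ± 0.17 and -0.31 ± 0.20 (SE; limma adjusted p = 0.743 and limma adjusted p = 0.812).

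Around Fst, limma called no gene of activin signalling. Of 7 activin ligand genes, 3 passed the filter, 2 with a higher and 1 with a lower mean, with Inhbb, the activin B subunit, at 1.16 ± 0.25 FPKM in MaR1 kidneys and 1.83 ± 1.22 FPKM in vehicle kidneys (-0.37 ± 0.27 SE, limma adjusted p = 0.831) and Inha, the inhibin alpha subunit, at 0.14 ± 0.17 (SE, limma adjusted p = 0.911). Of 9 activin receptor and signal genes, 3 had a higher and 6 a lower mean, and 1 had an unadjusted p under 0.05. That gene was Acvr1c, a type I receptor, at 2.63 ± 0.58 FPKM in MaR1 kidneys and 1.54 ± 0.85 FPKM in vehicle kidneys (0.72 ± 0.29 SE, limma adjusted p = 0.715), followed by Acvr1 at -0.16 ± 0.08 (SE, limma adjusted p = 0.753). Of 3 follistatin relatives and antagonists, 2 had a higher and 1 a lower mean. Fstl3 was at 0.14 ± 0.19 (SE, limma adjusted p = 0.929) and Fstl1 at 0.03 ± 0.20 (SE, limma adjusted p = 0.993).

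Around Wnt7b, limma called no gene of the Wnt lists either, and Apcdd1 had the highest difference among them. Apcdd1, a Wnt target that encodes an inhibitor of the pathway at the cell membrane, averaged 2.63 ± 1.23 FPKM in MaR1 kidneys and 0.818 ± 0.142 FPKM in vehicle kidneys, a log2 difference of 1.17 ± 0.23 (SE, limma adjusted p = 0.444). Its 5 MaR1 kidneys lay at 1.29 to 4.50 FPKM and its vehicle kidneys at 0.667 to 1.05 FPKM, without overlap. The other 4 Wnt targets that passed the filter also had higher means, with Rnf43 next at 0.18 ± 0.09 (SE, limma adjusted p = 0.753), and the median of the 5 was 0.22. Of the other Wnt ligands, 3 of 12 passed the filter, all with higher means. Wnt5a was at 0.64 ± 0.31 (SE, limma adjusted p = 0.753) and Wnt2b at 0.76 ± 0.44 (SE, limma adjusted p = 0.789). Of 12 receptor genes tested, 6 had a higher and 6 a lower mean, with Lrp5, a co-receptor, at 0.40 ± 0.16 (SE, limma adjusted p = 0.716) and Fzd1 at -0.26 ± 0.19 (SE, limma adjusted p = 0.831). Of 5 secreted inhibitors tested, 2 had a higher and 3 a lower mean. Dkk2 was at -0.33 ± 0.28 (SE, limma adjusted p = 0.854) and Frzb at -0.20 ± 0.21 (SE, limma adjusted p = 0.895).

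**Figure D4:**
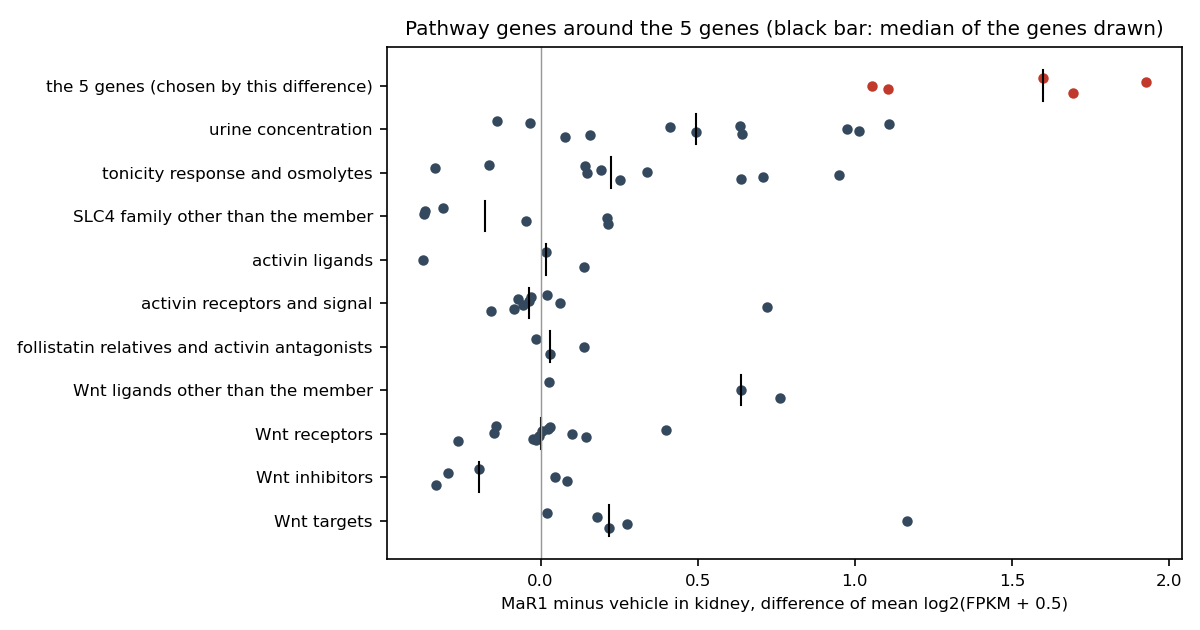
Difference of the mean log2(FPKM + 0.5), MaR1 minus vehicle kidneys, for the 5 genes and the genes of 10 pathway lists that passed the filter; each point is a gene and black bars are medians. The urine concentration list has a median of 0.50 and the activin receptor list one of -0.04, and Apcdd1 (1.17) lies apart from the other Wnt targets.

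The genes most like the members over the kidneys were found by the mean Pearson r with the 5 members after removing group means, over 10 kidneys and 11114 genes, as a description. The 10 highest were Smarcd3, Pcsk6, Atp9a, Tsen54, Sort1, Mapk13, Fbxo44, Ephb2, Cobl and Tet3, with a mean r of 0.70 to 0.73. Pcsk6, a proprotein convertase gene, had r = 0.95 with Wnt7b and averaged 3.34 ± 2.31 FPKM in MaR1 kidneys and 0.827 ± 0.413 FPKM in vehicle kidneys (log2 difference 1.41 ± 0.35 SE, limma adjusted p = 0.588). Smarcd3, a chromatin remodelling subunit gene, had r = 0.89 with Slc4a11 and a log2 difference of 0.82 ± 0.26 (SE, limma adjusted p = 0.661). Ephb2, an ephrin receptor gene, had r = 0.91 with Slc4a11 and 0.90 with Fst, and 0.18 with Slc14a1. Each of the 10 had a higher r with Wnt7b, Slc4a11 and Fst, at 0.66 to 0.95, than with Slc14a1, at 0.18 to 0.58. Wnt7b, Slc4a11 and Fst also had high r with each other. Picking by the mean r with the 5 members therefore favours genes like them, and nothing is read from the contrast with Slc14a1. Tsen54 and Tet3 shared the pattern inside groups with log2 differences between groups of -0.02 ± 0.12 and 0.07 ± 0.07 (SE).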

How the data were processed

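RNA was sequenced from kidney cortex and left ventricle of 10 rats. The authors deposited FPKM per gene. Per the submitters' processing notes, fastp, HISAT2 2.0.5, StringTie 1.3.3b and featureCounts 1.5.0-p3 were used; their settings, the build and the strandedness of counting are not given in the sources used here. Without strand, reads from a gene and an overlapping antisense gene would be counted together. Multiplying FPKM by gene length returned whole fragments, within 0.01, for 100% of the 371175 values above 0, and the library sizes behind the FPKM equalled median-of-ratios scaling. Over all 190 pairs of libraries the smallest chi-square per gene was 9.57, so no library repeats another.

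Values were analysed as log2(FPKM + 0.5) with limma 3.58.1 in R 4.3.3 (variance trend, two-sided, Benjamini-Hochberg, threshold adjusted p 0.05) on genes averaging 1 FPKM or more in the fitted libraries, each organ alone; the steps were tested on simulated data. Replicates are separate animals. Member relations used exact permutations within treatment groups over all orders. The members and gene lists were chosen with earlier results of these data known. Named genes are the members, the 2 of smallest unadjusted p in each pathway list and the 10 most like the members; Aqp4, Fxyd4 and the per-kidney marker values were singled out after their values were seen. List symbols with no single match (Krt19, Hba-a1, Hbb, Synpo, Hspa1b, Dkk1) were dropped.

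Kidney and heart with the same number come from the same animal by the labels; same-animal correlations of deviations over 10987 genes ran from -0.00947 to 0.179, 3 of 10 above 0.1. Each result was also computed with a pseudocount of 0.1 or 1, without the filter or with one of 5 FPKM, with total and quantile scaling, with limma voom on recovered fragments, with the animal as replicate block (statmod 1.5.0), each animal left out, and 4 kidneys with Upk1a above 1 FPKM left out. Figures used matplotlib 3.10.9.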

Additional observations from a re-analysis of the deposited data

Results flagged for a closer look

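In groups of 5 animals, the gap between the most extreme sample and its neighbour was compared with the group's whole range, for 24 groups of values, and chance marks about 1 in 20 groups. 3 values stood apart. Slc14a2 in MaR1 kidney RB037 was 3.83 FPKM, while the other MaR1 kidneys ranged over 0.0278 to 0.785 FPKM. Fst in MaR1 heart RB035 was 2.68 FPKM, against 0.310 to 0.826 FPKM in the other MaR1 hearts. The summed urothelium markers in vehicle kidney RB034 were 5.59 FPKM, against 0.669 to 1.18 FPKM in the other vehicle kidneys.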

How the results depend on the processing

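Every member's kidney difference stayed positive under all alternatives that could be run; leaving out each animal gave 1.56 to 1.90 for Slc14a1, 0.63 to 1.38 for Slc14a2, 0.83 to 1.28 for Slc4a11, 1.59 to 2.53 for Fst and 1.39 to 1.73 for Wnt7b (log2). The size depends on the treatment of low values. At a pseudocount of 0.1 the kidney difference was 2.58 for Slc14a1, 2.21 for Slc14a2 and 2.32 for Wnt7b, and under limma voom on recovered fragments it was 3.09 for Slc14a1 and 2.70 for Wnt7b. Without the 4 kidneys with Upk1a above 1 FPKM it was 1.62 for Slc4a11. Slc14a2, below the filter, had no value under quantile scaling, voom or the block, and the filters change no member's value. With both organs in 1 model and the animal as a replicate block, 10 of 12446 kidney genes were called in place of 0, Slc14a1 and Wnt7b among them. The kidney contrast chose the members, so nothing is read from their call. With the block, 0 heart genes were called, as without it, and the organ comparison over all 20 libraries called 11041 genes in place of 10983. Leaving out animals gave 0 to 1 called kidney genes, the 1 without RB035. The organ comparison over all 20 libraries called 10983 genes and, at a filter of 5 FPKM, 7292 of fewer genes tested. In it, kidney minus heart was 1.83 for Slc14a1, 1.34 for Slc4a11 and 3.20 for Wnt7b at a pseudocount of 0.1, 1.04 for Wnt7b at a pseudocount of 1 and 1.5004 for Slc4a11 under voom, against 1.08, 0.96 and 1.57 for Slc14a1, Slc4a11 and Wnt7b.

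In heart, the Slc4a11 difference was 0.22 under total fragment scaling (exact permutation p = 0.0397). Leaving out each animal gave heart differences of -0.0281 to 0.0620 for Slc14a1, -0.133 to -0.0755 for Slc14a2, 0.19 to 0.31 for Slc4a11, -0.77 to -0.27 for Fst and -0.00709 to 0.0195 for Wnt7b. Unadjusted exact permutation p-values were then 0.0397 for Slc14a2 without RB036, 0.0317 for Slc4a11 without RB038 and 0.0476 for Fst without RB035, the heart with its highest value. In vehicle animals, kidney minus heart was 0.57 for Slc14a1, -0.61 for Slc14a2, 0.88 for Slc4a11 and 2.06 for Wnt7b at a pseudocount of 0.1, and 0.38 for Slc4a11 and 0.45 for Wnt7b at a pseudocount of 1. Under voom it was 0.85 for Slc14a1, -2.56 for Slc14a2, 1.03 for Slc4a11 and 5.11 for Wnt7b, and under total scaling 0.75 for Slc4a11. Fst was -0.0366 under quantile scaling, -0.0902 without vehicle kidney RB034, the 1 vehicle kidney with Upk1a above 1 FPKM, and -0.0236 to 0.0685 with animals left out.

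The number of member pairs past the adjustment was 1, and 0 with FPKM without logs, under total scaling and without the 4 kidneys; leaving out animals gave 0 to 1, the pair being kept without RB030 or RB034 and lost without each other animal, where fewer kidneys enter. Its r stayed at 0.77 to 0.94. The r of Slc14a1 and Fst, near 0, was 0.0242 at a pseudocount of 0.1, 0.18 without logs, 0.0554 under total scaling, 0.68 without the 4 kidneys and -0.20 to 0.72 with animals left out. With animals left out, r was -0.00951 to 0.53 for Slc14a1 and Slc14a2, -0.22 to 0.56 for Slc14a1 and Slc4a11, -0.24 to 0.50 for Slc14a2 and Fst and -0.62 to 0.67 for Slc14a2 and Slc4a11. The r of Fst and the inner medulla sum was 0.67 to 0.92 with animals left out, past the adjustment only without RB030, and it was not past it with FPKM without logs (0.77) or without the 4 kidneys (0.59). With animals left out, r against that sum was -0.13 to 0.65 for Slc14a1 and -0.16 to 0.32 for Slc14a2. Against the urothelium sum it was -0.77 to 0.61 for Slc14a2, -0.67 to 0.0900 for Fst and -0.37 to 0.23 for Wnt7b. Against that sum, a pseudocount of 0.1 gave 0.0550 for Slc14a2 and 0.00692 for Wnt7b, and leaving out the 4 kidneys gave 0.80 for Slc14a2, 0.94 for Slc4a11, 0.68 for Fst and 0.82 for Wnt7b, on 6 kidneys. Values under 1 FPKM rest on few fragments.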

Other observations

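Fst had the same order in both organs of the vehicle animals and another order in each organ of the MaR1 animals. In MaR1 animals RB037, RB038, RB035, RB036 and RB039, from highest to lowest in kidney at 16.7, 11.9, 7.82, 5.68 and 0.757 FPKM, the heart values were 0.385, 0.826, 2.68, 0.310 and 0.619 FPKM. In vehicle animals RB034, RB031, RB033, RB030 and RB032, at 1.99, 1.81, 1.39, 1.19 and 0.445 FPKM in kidney, the heart values were 2.15, 1.89, 1.08, 1.02 and 0.519 FPKM. This was noticed after the values were seen and was not tested.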
